A study of Homo sapiens with 2 samples.

Results

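The SOX transcription factors followed here are 10 genes, SOX2, SOX4, SOX5, SOX6, SOX7, SOX9, SOX11, SOX12, SOX13 and SOX15, read in MKN1, an established cell line from a human gastric cancer. They were chosen from the SOX family by gene symbol with the differences between the arrays known, so their values on these arrays are a description and carry no test. Of the 10, 9 had a probe set that the platform annotation names, out of 17687 genes named in all, and SOX6 is not named here. The series holds 2 Affymetrix arrays of total RNA, 1 from MKN1 cells overexpressing wild-type RHOA and 1 from MKN1 cells overexpressing RHOA Y42C. The RHOA protein is a GTP-binding switch of the actin cytoskeleton, and Y42C is a tyrosine-to-cysteine substitution found in gastric cancer. Per the labels, both lines were made with a pBABE plasmid and selected in puromycin, and no label says whether a line is a clone or a pool. Both groups therefore carry added RHOA and the selection marker, and neither parental nor empty-vector cells were analysed here, so it cannot be said in which line a level moved. A single array per line gives no replicate error, and each difference compares these 2 lines.

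SOX proteins bind DNA through an HMG box, a domain that fits into the minor groove and bends the helix sharply. They are sorted into groups by the likeness of that box, and they usually act on a gene together with a partner factor. SOX2 keeps stem cells undifferentiated and patterns the foregut and stomach, SOX9 marks progenitor cells of many epithelia and drives cartilage formation, and SOX4 is often high in carcinomas, where TGF-beta induces it.

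Signals are the deposited values, taken as log2 because of their range, and each fold assumes that scale. Probe sets differ in brightness, so a level is compared only with the level of the same gene on the other array. A gene was counted as above the expression minimum when its signal on either array came to the 95th percentile of 348 olfactory receptor genes there (5.17 for wild-type, 5.14 for Y42C). Of the 9 SOX genes measured, 7 were above it. SOX12 passed through the wild-type array alone, and SOX5 and SOX11 stayed below on both arrays.

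Of the 9 SOX genes measured, 3 were at least 2-fold higher on the Y42C array, namely SOX9, SOX4 and SOX13, and 0 were at least 2-fold lower. Among all 11802 genes above the minimum, 7.46% passed 2-fold upward and 9.80% downward. With no minimum, these shares were 5.52% and 6.76% of 17687 genes. The median difference, Y42C minus wild-type, was 0.40 over the 9 genes and -0.02 over all genes on the log2 scale. Because these genes were picked with their differences in view, nothing is read from the gap between the counts and the shares.

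**Figure D1:**
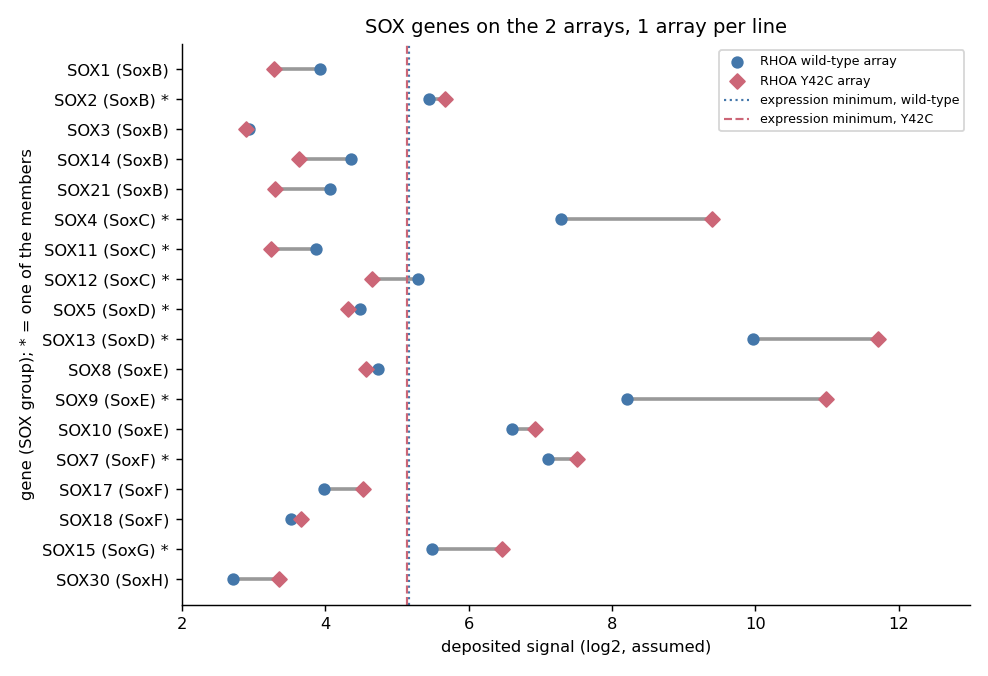
Signal of each SOX gene on the RHOA wild-type array (circles) and the RHOA Y42C array (diamonds), in log2 units, with 1 array per line and no error bars; vertical lines mark the expression minimum of each array, and stars mark the 9 measured members. SOX9, SOX4 and SOX13 have the widest gaps, while 2 members and 8 of the 9 other SOX genes lie below both lines on both arrays.

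SOX9, the SoxE factor of cartilage, gut crypt and pancreatic duct progenitors, read 8.21 on the wild-type array and 10.98 on the Y42C array. It was the member with the widest difference, 2.77 on the log2 scale or 6.82-fold. Of the 11802 genes above the minimum, 29 including SOX9 were higher by at least that much. In the bin of 590 genes with the closest mean level, 1 of 20 such bins, 5 were, and the middle of that bin's differences ran from -0.66 to 0.43 (quartiles). Neither of the other SoxE genes passed 2-fold. SOX10, a neural crest factor, read 6.60 and 6.93, a difference of 0.33. SOX8 read 4.74 and 4.57, below the minimum on both arrays.

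SOX4, a SoxC factor that sustains survival and migration in progenitor and carcinoma cells, read 7.29 on the wild-type array and 9.40 on the Y42C array, 4.32-fold higher. Including SOX4, 93 genes were higher by at least that much, 4 of them in its bin of 590 genes of like level. The remaining SoxC genes read lower on the Y42C array, both at low signal. SOX12, a broadly expressed and weaker activator, read 5.29 and 4.65. Since the Y42C value is below the minimum, the fold is a bound, at least 1.11-fold lower. SOX11, a factor of the developing nervous system, read 3.87 and 3.25 and was below the minimum on both arrays, so no fold is given.

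SOX13, a SoxD factor known from T cell and arterial wall studies, read 9.97 on the wild-type array and 11.71 on the Y42C array, 3.34-fold higher. At least that far up lay 193 genes including SOX13, 11 of them in its bin of 590. SoxD proteins have no activation domain of their own and shape what other SOX proteins do. SOX5, the SoxD partner of SOX9 in cartilage, read 4.48 and 4.32, below the minimum on both arrays.

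**Figure D2:**
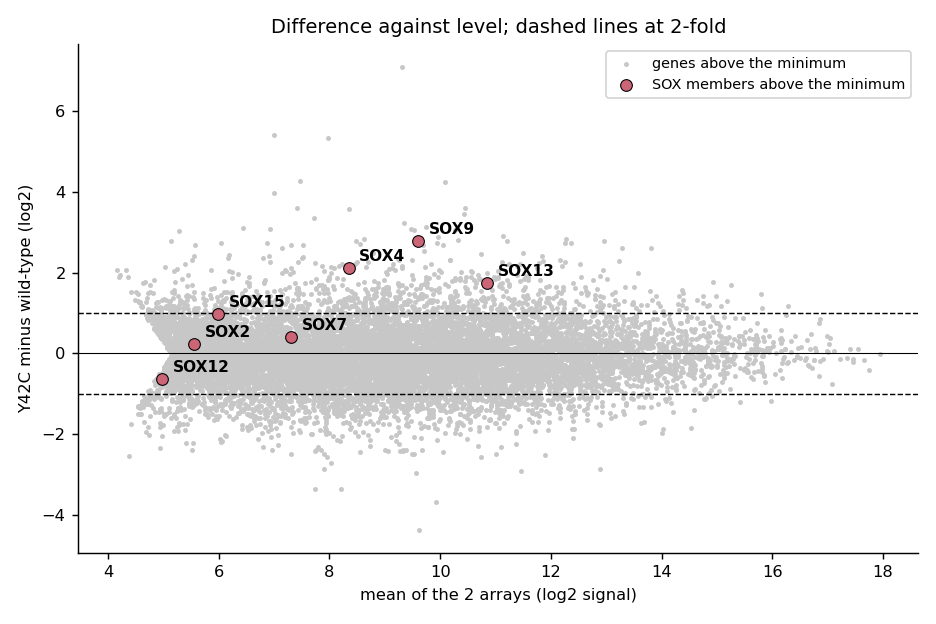
Difference between the arrays (Y42C minus wild-type, log2) against the mean of both arrays for the 11802 genes above the minimum (grey) and the 7 SOX members among them (red), with dashed lines at 2-fold. SOX9, SOX4 and SOX13 lie above the upper line, and SOX15 lies at 0.98, just under it.

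The other 3 members above the minimum on both arrays were higher by less than 2-fold. SOX15, the only SoxG factor, known from myogenic and placental cells, read 5.49 and 6.47. Its difference of 0.98 was the nearest to the 2-fold line from below, and that of SOX13, 1.74, the nearest from above. The SOX15 difference passed the line at 1.04 with arrays centred on their medians, 1.01 with quantile normalization and 1.03 with a trend on level removed. Under each of these settings 4 of 9 were past 2-fold. In the same order, 1030 of 11802, 990 of 11809 and 1074 of 11802 genes kept by the minimum passed that line upward. With the deposited values, 881 of 11802 did, so the upward count over all kept genes rose as well. Nothing is read from the count of 4. With a constant of 16 added to the linear values, the SOX15 difference was 0.78. SOX7, a SoxF factor of endothelium and a reported brake on beta-catenin, read 7.11 and 7.51, a difference of 0.40. SOX2, the SoxB1 factor of stem cells and foregut epithelium, read 5.45 and 5.67. Both its values were close to the minimum, and its difference was 0.22.

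No SOX group had more than 1 measured member past 2-fold, and the 3 genes that passed stand in 3 groups, SoxE, SoxC and SoxD. Among the 9 SOX genes that are not members, SOX10 was the 1 above the minimum. SOX1, SOX3, SOX14 and SOX21 of SoxB, SOX8 of SoxE, SOX17 and SOX18 of SoxF, and SOX30 of SoxH were below it on both arrays, with signals from 2.71 to 4.74 on the wild-type array and from 2.90 to 4.57 on the Y42C array. HMG boxes of SOX genes are alike, and whether probes are shared between them was not tested.

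**Figure D3:**
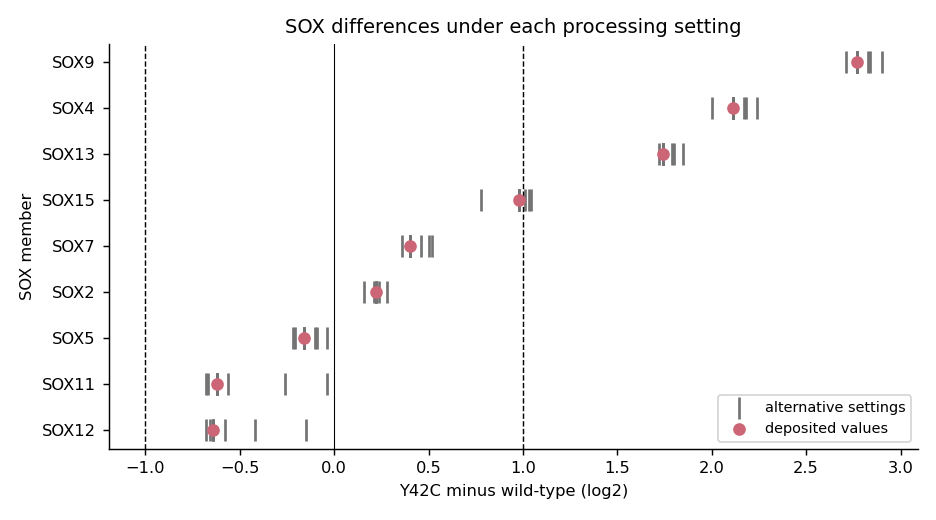
Difference of each measured SOX member (Y42C minus wild-type, log2) with the deposited values (dots) and under the alternative settings (bars), with dashed lines at 2-fold. For the 7 members above the minimum, settings that drop the gene are left out. SOX5 and SOX11, below the minimum, are drawn under all settings. SOX9 stays between 2.71 and 2.90, SOX4 between 2.0 and 2.24 and SOX13 between 1.72 and 1.85, while bars cross the 2-fold line for SOX15.

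The stretches just before the transcription starts of 4 members are printed because SOX4 and SOX13 were both at least 2-fold higher, SOX12 was lower and SOX2 differed little. RefSeq promoters (GRCh38.p14) were matched for 6 of the 10 members. SOX7, SOX9, SOX11 and SOX15 had no entry. Each line gives 250 bases up to the start, 5′ to 3′ on the gene's strand, which is the plus strand for all 4. They lie at chr6:21593501-21593750 (SOX4), chr1:204072865-204073114 (SOX13), chr3:181711675-181711924 (SOX2) and chr20:325302-325551 (SOX12). Capitals mark matches, on either strand, to the SOX cores ACAAAG or ACAATG, the TCF-LEF letters CTTTGA, the TEAD letters GGAATG, the AP-1 letters TGANTCA, the CCAAT box CCAAT, the GC box GGGCGG and the TATA box TATAAA.
SOX4: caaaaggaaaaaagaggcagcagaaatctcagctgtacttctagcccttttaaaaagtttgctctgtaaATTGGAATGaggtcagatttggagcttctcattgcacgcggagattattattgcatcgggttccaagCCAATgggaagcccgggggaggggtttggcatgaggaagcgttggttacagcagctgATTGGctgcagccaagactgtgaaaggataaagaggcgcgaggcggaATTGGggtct
SOX13: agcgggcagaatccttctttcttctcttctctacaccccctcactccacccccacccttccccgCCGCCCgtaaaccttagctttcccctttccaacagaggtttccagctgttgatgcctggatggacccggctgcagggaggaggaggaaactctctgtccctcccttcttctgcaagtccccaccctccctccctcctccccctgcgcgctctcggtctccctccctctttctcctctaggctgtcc
SOX2: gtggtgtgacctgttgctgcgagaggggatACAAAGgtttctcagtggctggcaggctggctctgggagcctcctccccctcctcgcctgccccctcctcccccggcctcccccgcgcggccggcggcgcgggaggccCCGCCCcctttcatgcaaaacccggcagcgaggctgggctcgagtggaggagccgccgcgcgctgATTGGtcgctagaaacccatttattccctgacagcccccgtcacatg
SOX12: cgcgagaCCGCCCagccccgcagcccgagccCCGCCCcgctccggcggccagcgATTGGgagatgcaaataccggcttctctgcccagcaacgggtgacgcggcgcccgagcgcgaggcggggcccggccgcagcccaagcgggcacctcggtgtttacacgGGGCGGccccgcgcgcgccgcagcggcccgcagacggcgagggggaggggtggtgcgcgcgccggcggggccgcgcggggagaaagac

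These windows differed in their letters. SOX4 held 4 CCAAT boxes, the first of them (at -181, counted from the start) overlapping the 1 TEAD match at -178. Of 35116 promoter windows of the same length, 32.0% held a CCAAT box and 11.9% the TEAD letters. SOX13 held 1 GC box, at -186, and no other match, and 42.6% of windows held a GC box. A SOX core stood in the SOX2 window alone among the 4, at -220, beside 1 CCAAT box and 1 GC box, and 21.2% of windows held either core. SOX12 held 3 GC boxes and 1 CCAAT box. The share of G and C was 48.8% for SOX4, 60.8% for SOX13, 68.8% for SOX2 and 79.2% for SOX12, against a median of 58.0% over all windows. TCF-LEF, AP-1 and TATA letters were in none of the 4, and stood in 11.2%, 6.57% and 10.7% of all windows. A match is a stretch of letters and not a measured binding site.

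Genes reported as targets of SOX4 or SOX11 split. Of 15 named here, 14 were above the minimum. Past 2-fold, 4 were higher and 1 was lower, beside 7.46% and 9.80% of all genes above the minimum. The list's median difference was 0.06, beside -0.07 over all genes above the minimum. The list was drawn up with earlier results of these data known, so nothing about it is read from these counts. SEMA3C, a secreted guidance protein, read 9.52 on the wild-type and 11.42 on the Y42C array, 3.73-fold higher. CEMIP2, a cell-surface protein linked to hyaluronan breakdown, was 2.85-fold higher, PLXNA2, a semaphorin receptor subunit, 2.50-fold, and the adhesion molecule NRCAM 2.13-fold. DBN1, an actin-binding protein, was 2.16-fold lower. The receptors EGFR and FZD5 lay at 0.04 and 0.09, and DICER1, EZH2 and TEAD2 at -0.44, -0.24 and -0.42 on the log2 scale.

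Of 17 genes named here that are reported as targets of SOX9 in epithelium, 11 were above the minimum. Past 2-fold, 0 of these were higher and 0 lower, beside 7.46% and 9.80% of all genes, so 11 genes are too few to set the list apart. Their median difference was 0.11. None of the target lists here was split by whether the SOX factor is reported to raise or lower a gene, so no direction is read from them. TCF7L2 (0.89) and CDX2, an intestinal homeobox factor (0.63), stood at the upper end, and S100A1 (-0.54) and CD24 (-0.38) at the lower. LGR5, a stem cell receptor of the gut, read 3.26 and 3.36, below the minimum. Cartilage genes that SOX9 drives with SOX5 and SOX6 were mostly too dim to compare, with 11 of 20 below the minimum on both arrays, among them ACAN (2.95 and 3.21). Of the other 9, 1 was past 2-fold upward in the deposited values and 1 downward. The first, COL27A1, a fibrillar collagen, read 4.34 and 5.46. Its wild-type value is below the minimum, so it can be called at least 1.22-fold higher and no more, and with values set to the minimum 0 of the 9 passed upward. PAPSS2, which makes the sulfate donor for proteoglycans, was 2.53-fold lower. COL2A1, the main cartilage collagen, read 5.59 and 5.14.

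Of 21 targets and partners reported for SOX2, 9 were above the minimum. Of these 9, 1 passed 2-fold upward and 0 downward (median 0.28), beside 7.46% and 9.80% of all genes above the minimum. SALL4, a zinc finger factor of stem cells, read 9.48 and 10.86, 2.60-fold higher. FGFBP1 lay at 0.73 and KRT5 at -0.66, the ends of the remaining range. NANOG, a pluripotency factor, read 3.17 and 3.15, below the minimum on both arrays. These lists were drawn up with earlier results of these data known.

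**Figure D4:**
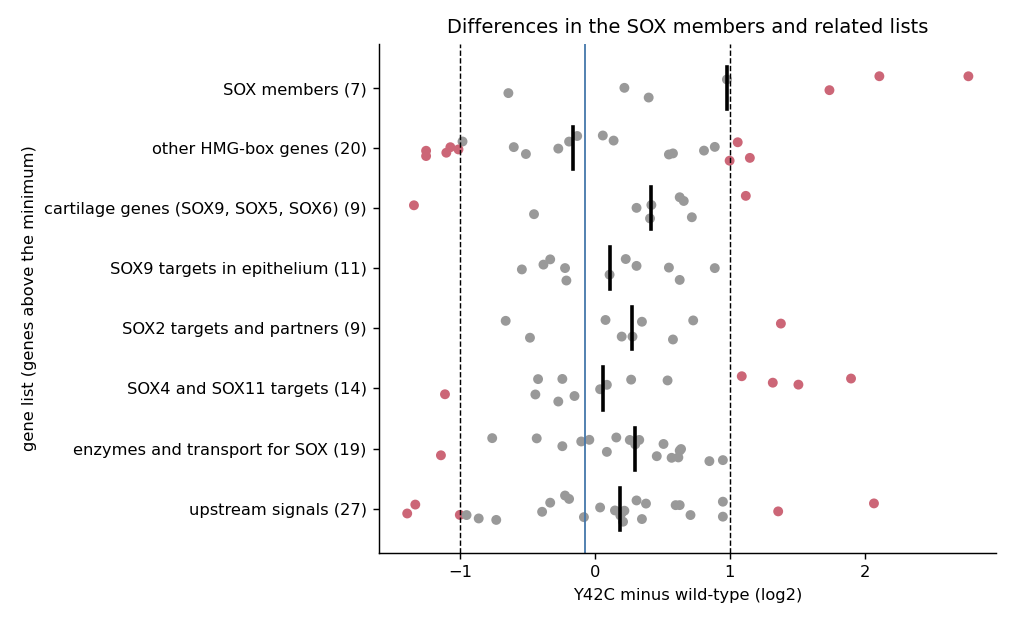
Difference of each gene above the minimum (Y42C minus wild-type, log2) in the SOX members and 7 related lists, with the number of genes in brackets; red dots are at least 2-fold apart, black bars are list medians, the blue line is the median of all genes above the minimum (-0.07), and vertical jitter carries no meaning. SOX9 has the widest difference shown, 2.77, and the medians of the 7 related lists lie between -0.16 and 0.42.

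Other genes with an HMG box differed in both directions. Past 2-fold, 3 of the 20 above the minimum were higher and 5 lower, beside 7.46% and 9.80% of all genes above the minimum. The median difference of the 20 was -0.16, and nothing about the list is read from these counts. LEF1, TCF7L2 and TCF7L1, the HMG-box partners of beta-catenin, differed by 1.0, 0.89 and 0.81, so LEF1 stood exactly at 2-fold. CIC, a repressor in the RAS-MAPK pathway, was 2.22-fold and HMGXB3 2.08-fold higher. HBP1, a repressor that slows the cell cycle, and BBX were each 2.38-fold lower, the chromatin proteins HMGB3 and HMGB2 2.14-fold and 2.10-fold, and TFAM, which packs mitochondrial DNA, 2.01-fold. With a trend on level removed, 2 of these 20 were at least 2-fold lower in place of 5.

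Enzymes and transport factors that act on SOX proteins came next. Of 19 above the minimum, 0 passed 2-fold upward and 1 downward, beside 7.46% and 9.80% of all genes, and the median difference was 0.30. With so few genes, nothing about the list is read from these counts. CUL4A, a scaffold of ubiquitin ligases, was 2.20-fold lower. USP7, a deubiquitinase, and CREBBP, an acetyltransferase, lay at 0.95 and 0.85, and SETD7, a methyltransferase, at -0.76. FBXW7, which marks SOX9 protein for breakdown, read 7.82 and 8.39.

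Signals known to act above SOX genes differed in both directions. Among 27 above the minimum, 2 passed 2-fold upward and 3 downward (median 0.19), beside 7.46% and 9.80% of all genes above the minimum. With so few genes, nothing about the list is read from these counts. MYC read 8.15 on the wild-type and 10.22 on the Y42C array, 4.20-fold higher. SMAD3, a transducer of TGF-beta signals, was 2.57-fold higher, while TGFBR1, the type I receptor for TGF-beta, was 2.62-fold lower. NOTCH2, a receptor, was 2.51-fold lower and CTNNB1, the gene of beta-catenin, 2.0-fold lower, at the threshold. YAP1, a coactivator that SOX9 is reported to respond to, read 12.07 and 12.29.

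The line's identity was checked on markers. EPCAM (13.30 and 13.53), KRT8 (17.96 and 17.94) and KRT18 (16.96 and 17.03) were bright on both arrays, while the epithelial cadherin CDH1 was below the minimum (3.92 and 3.86). Of 13 epithelial markers named here, 11 were above the minimum. Past 2-fold, 2 of them were higher and 1 lower, beside 7.46% and 9.80% of all genes above the minimum. SPINT1, a protease inhibitor, read 8.92 and 11.72, and ST14, the protease matriptase, 11.13 and 13.38, while CLDN7, a tight junction gene, read 10.61 and 9.31. Squamous markers held the widest differences of these lists. Of 14 above the minimum, 4 were past 2-fold upward and 2 downward, beside the same shares of all genes. The cornified envelope gene SPRR1A read 5.78 and 12.86, SPRR1B 4.30 and 9.70 (at least 23.1-fold higher), SFN 14.04 and 15.81, and S100A2 6.45 and 7.52. SERPINB4 read 11.80 and 7.44, and SERPINB3 11.76 and 8.08. These epithelial and squamous genes differed beside SOX9, SOX4 and SOX13, and their part in the SOX differences was not tested. Markers of gastric epithelium were mostly dim, with 9 of 15 below the minimum on both arrays, MUC5AC and TFF1 among them. Of the 6 other gastric markers, 1 was past 2-fold upward in the deposited values and 0 downward, beside the same shares of all genes. It was ANXA10, at 3.78 and 5.55. Its wild-type value is below the minimum, so it can be called at least 1.30-fold higher and no more. Of the markers for other cells, 10 of 13 neural and melanocyte genes, 9 of 19 leukocyte genes and 8 of 17 fibroblast and endothelial genes were below the minimum on both arrays. Among the 3 neural and melanocyte genes above the minimum, 0 passed 2-fold upward and 1 downward. Among the 10 leukocyte genes above it, 0 passed upward and 1 downward. All genes above the minimum did so at 7.46% and 9.80%. The genes past 2-fold were ERBB3, a receptor that epithelia also express, at 9.54 and 7.50, and CD14 at 7.45 and 5.67. The summed linear signal of the fibroblast and endothelial list was 16118 and 39967. LUM (12.09 and 14.37) and ENG (13.42 and 14.11) were by far its brightest genes, so the sum mostly follows them. Of the list's 9 genes above the minimum, 2 were past 2-fold upward and 0 downward, beside the same shares of all genes. The median difference of the 9 was 0.20. Past 2-fold were LUM, 4.86-fold higher, and COL1A2, 2.06-fold higher at 7.68 and 8.72. PDGFRA, PDGFRB, THY1 and DCN stayed below the minimum. The part of this list in the SOX differences was not tested. RHOA itself read 16.47 and 16.30, and both lines carry a RHOA vector, so this does not check the labels.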

How the data were processed

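The deposited table gives signals of 21448 probe sets on each array, between 2.23 and 18.16, and these deposited values were assumed to be log2 from their range. The authors made them with Affymetrix Expression Console, per the submitters' processing notes. Not given in the sources used here are the log base, the normalization, the probe summary, the background correction and the tool's version. The array medians were 6.42 and 6.36, and values were used as deposited. The platform annotation named 17709 probe sets with 1 gene each. The other 3739, with no symbol or with more than 1, count as unnamed here. Where a gene had several probe sets (20 genes, no SOX gene), their mean was taken.

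Differences are Y42C minus wild-type, with no test. The expression minimum is defined in the report. A fold given as a bound sets the brighter value against the minimum of the array that lay below it. Genes named are the SOX genes, listed genes at least 2-fold apart and above the minimum, list members at the ends of a list, and defining markers; some others were added once the values were known. The members and lists were chosen with earlier results of these data known. A planned comparison of SOX proteins was not run, since no protein sequences were used here. Motif letters and the neighbouring genes were chosen after the values were seen. With 2 arrays no likeness of pattern between genes could be measured. The code was run on simulated arrays without noise and returned the shifts set into them, which checks the arithmetic only. Precision is limited by the number of arrays. The software was matplotlib 3.10.9, statsmodels 0.14.6, NumPy 2.4.6 and pandas 2.3.3 under Python 3.11.15.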

Additional observations from a re-analysis of the deposited data

How the results depend on the processing

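The alternatives were 3 normalizations (centring on the median, quantile, and removal of a trend on level by lowess with a span of 0.3), 4 expression minimums (percentiles 90 and 99 of olfactory receptor genes, the array median, none), a constant of 16, values below the minimum set to it, the brightest probe set, and thresholds of 1.5-fold and 4-fold. SOX9, SOX4 and SOX13 stayed at least 2-fold higher under all of them but the last, and SOX9 and SOX4 under the 4-fold threshold as well. Only the 3 normalizations and the constant of 16 could move these 3 differences. A minimum can only drop a gene, values set to the minimum leave genes above it on both arrays as they are, and no SOX gene has several probe sets. No measured SOX gene changed sign. With values set to the minimum, SOX5 and SOX11 each lay at -0.04, the gap between the minimums of the arrays, so their sign was fixed there. At 1.5-fold, 1 SOX gene, SOX12, counted as lower in place of 0 by its deposited values, though its Y42C value is below the minimum and its bound is 1.11-fold. The median of the 9 measured SOX genes was 0.40, and their mean 0.76. Over the 7 above the minimum the median was 0.98, and it was 1.74 with percentile 99, 1.92 with the array median and 0.40 with no minimum, since fewer or more genes are kept. In the 7 related lists, whose sizes are given with each list, 11 genes passed 2-fold upward and 11 downward. Of all genes above the minimum, 7.46% and 9.80% did. At 1.5-fold the counts in the lists were 27 and 18, and at 4-fold 1 and 0. Shares over all genes were not computed at these 2 thresholds, so nothing is read from any count at them. With a trend on level removed, 6 genes in the lists were at least 2-fold lower. Over all genes above the minimum, 950 were at least 2-fold lower with that trend removed, in place of 1157. The cause of the drop in the lists was not tested. COL27A1, whose wild-type value is below the minimum, did not count as past 2-fold with percentile 99, the array median, the constant of 16 or values set to the minimum. No paired analysis was possible because each group has 1 array. Low signal limits SOX2, SOX5, SOX11 and SOX12, which lay near or below the minimum. It also limits SOX15, whose wild-type value of 5.49 was near it and which the array median as minimum dropped.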

Other observations

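Coding genes next to the 3 members past 2-fold, in the order of the RefSeq gene table, did not pass 2-fold on these arrays. Of 4 neighbours of SOX9, 2 on each side, SLC39A11, a zinc transporter, was the 1 above the minimum and lay at -0.57. KCNJ2 (3.75 and 3.45), KCNJ16 (4.27 and 4.50) and SSTR2 (3.46 and 3.68) were below it on both arrays. Beside SOX4, the cell cycle factor E2F3 lay at 0.87 and CDKAL1, a tRNA-modifying enzyme, at -0.05, while PRL and HDGFL1 were below the minimum. Beside SOX13, the splicing protein SNRPE lay at -0.59 and the kinase ETNK2 at -0.89, while LAX1 and KISS1 were below the minimum.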
